A study of Bienertia sinuspersici with 9 samples.

Results

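In leaves of the single-cell C4 plant Bienertia sinuspersici, 191 of 11709 unigenes (1.63%) had higher levels in 2 successive steps of leaf development, as the gene of the carbon-fixing enzyme PEPC1 does. They were picked by their values in TPMTMM, which is built from TPM. TPM is a transcript's share of a library, scaled to the same total in every library. TPMTMM is the rounded TPM plus 1, multiplied by the authors' scaling factor for each library. With Y, I and M as the mean of the 3 young, 3 intermediate and 3 mature libraries, a member had I/Y of at least 1.5, M/I of at least 2 and M of at least 20 TPMTMM. Its lowest intermediate library also lay above its highest young library, and its lowest mature library above its highest intermediate library. PEPC1 itself and 6 other named genes were left out beforehand. Of these 7 genes 5 met the rule (PEPC1, PPDK, CAb2, ASP-AT1 and ASP-AT2), so that 196 unigenes met it in all, and NAD-ME2 and D27 did not. The 191 unigenes come from 189 genes of the Trinity assembly, 2 of which gave 2 members each. Because the rule used the levels in all 9 libraries, the size of each step in these unigenes is given as a description and is supported by no test.

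All plants were wild type, grown in a greenhouse in soil and watered with a sodium chloride solution. Each stage gave 3 libraries, from leaves under 0.3 cm (young), of 0.3 to 0.7 cm (intermediate) and over 2 cm (mature) in length. Of mature leaves the tip part alone was taken, so wherever mature leaves are compared, stage and leaf part cannot be told apart. The labels call the libraries of a stage biological replicates. The sources used here do not say which plants gave which replicate, so p-values reflect only how far these libraries differ within a stage. In whole leaves, fewer cells of a type and less RNA per cell cannot be told apart. Clean read pairs numbered 33216919 to 34660184 in young libraries, 26803106 to 29960151 in intermediate libraries and 23529432 to 30942971 in mature libraries.

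Bienertia runs the C4 carbon cycle inside single chlorenchyma cells, the photosynthetic cells of the leaf. Phosphoenolpyruvate carboxylase (PEPC) fixes bicarbonate in the cytosol, NAD-malic enzyme (NAD-ME) releases carbon dioxide in mitochondria beside the central chloroplasts, and Rubisco there fixes it again. Pyruvate orthophosphate dikinase (PPDK) regenerates the acceptor, carbonic anhydrase (CA) supplies bicarbonate, and aspartate aminotransferase (ASP-AT) interconverts aspartate and oxaloacetate, the amino and keto acids of this cycle. The cycle is set up as the leaf grows, when the chloroplasts of a cell become of 2 kinds in separate compartments.

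PEPC1, the pattern for the set, had 1303, 1269 and 1476 TPMTMM in young leaves, 2230, 2274 and 3960 in intermediate leaves and 9098, 9965 and 10033 in mature leaves. The 3 stages did not overlap, and intermediate 3 stood far above the other intermediate libraries. Its ratios of stage means were 2.09 for I/Y, 3.44 for M/I and 7.19 for M/Y. No member reached PEPC1's level: the highest had a mature mean of 7178 TPMTMM.

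Over the 191 members, the median of the stage means was 22.9 TPMTMM in young leaves (1.14 to 1406), 39.1 in intermediate leaves (1.86 to 2375) and 114 in mature leaves (21.0 to 7178). Over all 11709 unigenes these medians were 16.6, 16.6 and 16.7 TPMTMM. Abundance in the set was spread widely, with 49 members under 50 TPMTMM in mature leaves and 15 at or above 1000, a level that 88 of all unigenes reached. A young mean under 5 TPMTMM was found in 22 members, and 3 members had a TPM that rounds to 0 in at least 1 young library.

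**Figure D1:**
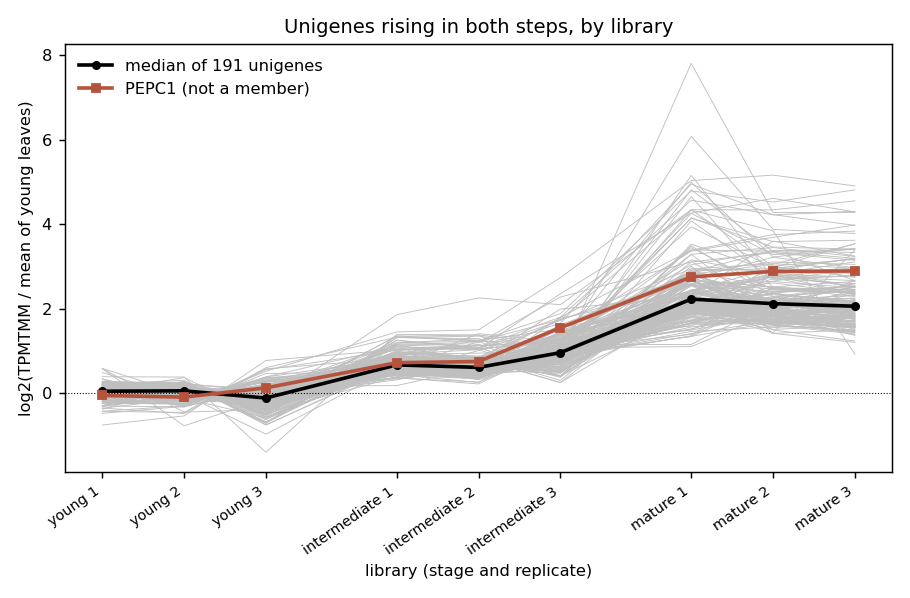
Level of each of the 191 unigenes (grey lines) in the 9 libraries, as log2 of TPMTMM over its own young mean, with the median over the unigenes in black and PEPC1, which is not a member, in red. The lines separate into 3 levels by stage, intermediate 3 lies above the other intermediate libraries in both the median and PEPC1, and a few lines peak in mature 1 alone.

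The second step was the larger one in nearly all members. The median I/Y was 1.70 (1.504 to 4.23) and the median M/I was 2.57 (2.02 to 53.6), which together gave a median M/Y of 4.46 (3.10 to 87.4). On the log2 scale the medians were 0.77, 1.36 and 2.16, against medians between -0.01 and 0.01 over all unigenes. M/I exceeded I/Y in 186 members and was the smaller in 5, an order that the limits of 1.5 and 2 favour. In 29 members I/Y was at least 2, and in 4 of them at least 3. In 30 members M/I was at least 4, and in 2 of them at least 10. M/Y reached 10 in 22 members. By the intermediate stage a median of 36.0% of the log2 difference between mature and young leaves was in place (10.9% to 58.7%), and in PEPC1 37.4%. The same limits bound this share in part, so its nearness to the share of PEPC1 is not read as a likeness in timing.

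**Figure D2:**
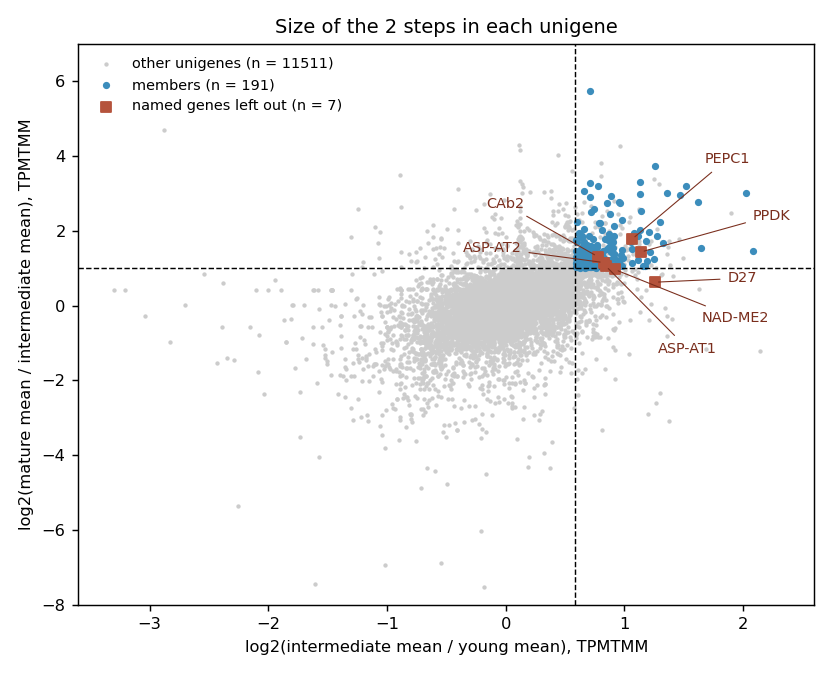
Size of the second step (log2 of mature over intermediate mean, vertical) against the first (log2 of intermediate over young mean, horizontal) for 191 members (blue), 7 named genes left out beforehand (red squares) and 11511 other unigenes (grey); dashed lines mark the limits of 1.5 and 2. Members fill the corner just above both limits, PEPC1 and PPDK lie further inside it, and NAD-ME2 (M/I of 1.96) and D27 fall under the limit of the second step.

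Each demand alone was met by many more unigenes. I/Y of at least 1.5 held in 710 unigenes, M/I of at least 2 in 824, a mature mean of at least 20 TPMTMM in 5175, and the separation of single libraries in 2131 for the first step and 2553 for the second. Unigenes that missed a single demand numbered 104 for I/Y, 146 for M/I, 31 for the first separation, 11 for the second and 42 for the mature level. The limits cut through a continuous range. BS2150_c0_g2_i1 had an I/Y of 1.504 and was in, and BS1426_c2_g1_i1 had 1.497 and was out. For M/I the nearest pair was BS13491_c0_g1_i1 with 2.02 and BS18829_c0_g1_i2 with 1.99. For the mature mean it was BS68_c1_g1_i2 with 21.0 TPMTMM and BS16918_c0_g1_i3 with 18.9 TPMTMM.

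The highest member, BS732_c1_g2_i1, had 1211, 1274 and 1366 TPMTMM in young leaves, 1998, 1922 and 3205 in intermediate leaves and 7816, 7117 and 6600 in mature leaves. Its intermediate 3 value was far above the other 2, as in PEPC1, and it was also among the 5 members closest to PEPC1 over the 9 libraries. The next in level was BS33886_c0_g1_i3, with 1504, 1608 and 1106 TPMTMM in young leaves, 2040, 2013 and 2329 in intermediate leaves and 6085, 4580 and 3821 in mature leaves. BS10612_c2_g1_i2 had 1163, 1281 and 745 TPMTMM in young leaves, 1714, 1629 and 1706 in intermediate leaves and 5698, 3915 and 3183 in mature leaves. In both of these unigenes young 3 was the lowest young library and mature 1 the highest mature library, an order unlike that of PEPC1. Mature means of 2601 and 2545 TPMTMM followed in BS2419_c1_g1_i7 and BS53669_c1_g1_i1, with M/Y of 3.46 and 3.68. The sources used here give none of these 5 unigenes a name.

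These abundant unigenes carried much of the set's RNA. In TPM, the 191 members held 1.82 ± 0.213% of the library in young leaves (SD, n = 3), 2.83 ± 0.249% in intermediate leaves and 5.38 ± 0.815% in mature leaves. Single libraries held 1.58% to 2.00% in young leaves, 2.62% to 3.10% in intermediate leaves and 4.57% to 6.20% in mature leaves, with no overlap between stages. This rise and separation of the summed share follow largely from the rule, which chose each member for them. The 10 highest members made up 44.1% to 52.1% of this share in every library. The 7 genes left out beforehand held 0.50% to 0.52% in young leaves, 0.79% to 1.19% in intermediate leaves and 1.81% to 1.98% in mature leaves.

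The largest M/Y were found in members of low and of moderate level in young leaves. Among members with a young mean of at least 5 TPMTMM, BS25896_c0_g1_i7 had the largest M/Y, 32.8. It had 22.3, 24.4 and 42.9 TPMTMM in young leaves, 81.7, 84.6 and 199 in intermediate leaves and 977, 1068 and 895 in mature leaves. In this unigene library 3 was the highest of both the young and the intermediate stage, and the mature libraries lay close together. BS11210_c0_g1_i5 had the same order, with 18.9, 21.9 and 54.3 TPMTMM in young leaves, 64.9, 65.5 and 162 in intermediate leaves and 608, 774 and 620 in mature leaves, and an M/Y of 21.1. BS53_c4_g2_i1 had 7.71, 6.73 and 5.25 TPMTMM in young leaves, 16.9, 15.5 and 22.0 in intermediate leaves and 133, 133 and 154 in mature leaves, an M/Y of 21.3 with little spread among mature libraries.

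A single library set some of the other large ratios. BS565_c0_g1_i1 had 19.7, 20.2 and 10.5 TPMTMM in young leaves, 31.1, 29.1 and 26.0 in intermediate leaves and 598, 112 and 84.8 in mature leaves. Its M/Y was 15.8 with all libraries and 5.86 without mature 1. BS903_c1_g1_i2, the member with the smallest share of its difference in place by the intermediate stage (10.9%), had 0.84 to 1.71 TPMTMM in young leaves, 1.78 to 2.00 in intermediate leaves and 255, 22.2 and 22.2 in mature leaves. Its M/I, the largest of the set, was 53.6 with mature 1 and 11.9 without. These lowest values also contain the 1 that was added to each TPM before scaling, so ratios against them understate the difference in TPM. In 16 members (8.38%) mature 1 was more than 2 times each of the other mature libraries, as it was in 4.18% of all unigenes. Without mature 1, 161 of the 191 members still had an M/I of at least 2, and the lowest was 1.42.

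**Figure D3:**
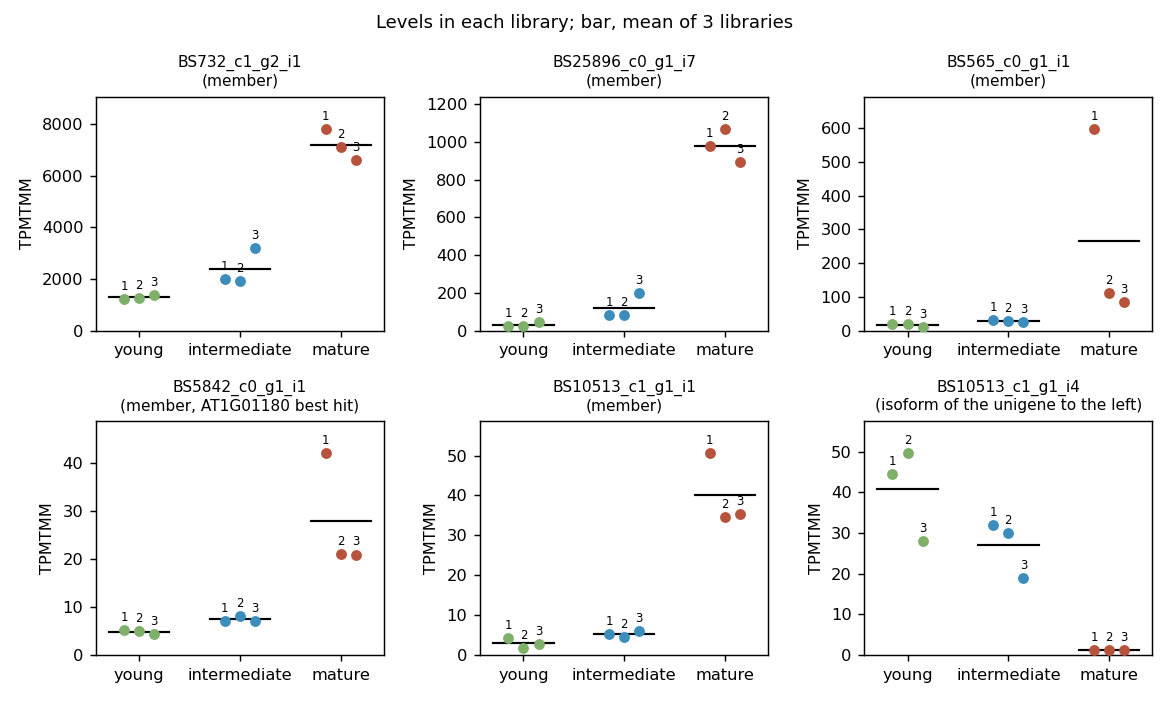
TPMTMM (vertical, from 0) of 5 members and of 1 other isoform in the 3 libraries of each stage (points, numbered by replicate), with the stage mean as a bar. BS732_c1_g2_i1 and BS25896_c0_g1_i7 separate the stages with all mature libraries close together, BS565_c0_g1_i1 and BS5842_c0_g1_i1 owe much of their mature mean to mature 1, and BS10513_c1_g1_i4 stands at 1.23 to 1.31 in mature leaves while the member BS10513_c1_g1_i1 is at its highest there.

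The shape of the rise varied most at the ends of the range. BS96765_c0_g1_i1 had the largest part of its log2 difference in place by the intermediate stage, 58.7%, with 11.1, 10.9 and 8.75 TPMTMM in young leaves, 37.3, 49.1 and 44.0 in intermediate leaves and 208, 82.5 and 69.2 in mature leaves. Its M/I of 2.76 became 1.74 without mature 1, under the limit of the rule. BS5538_c0_g1_i1 followed with 52.4%, from 8.57, 8.41 and 5.25 TPMTMM in young leaves, 17.8, 15.5 and 17.0 in intermediate leaves and 44.4, 30.8 and 30.0 in mature leaves. At the other end BS14524_c0_g1_i1 had 17.7% in place, with 2.52 to 2.63 TPMTMM in young leaves, 3.55, 3.64 and 4.99 in intermediate leaves and 45.6, 28.3 and 27.4 in mature leaves.

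Closeness to PEPC1 was measured as the root mean square difference of log2(TPMTMM + 1) over the 9 libraries, each unigene centred on its own mean, and so takes in the order of libraries within a stage. The median distance over the members was 0.46 (0.16 to 1.42). The closest was BS20904_c0_g1_i2 at 0.157, a unigene of low abundance with 6.86, 7.57 and 9.63 TPMTMM in young leaves, 11.5, 12.7 and 21.0 in intermediate leaves and 43.2, 62.8 and 57.4 in mature leaves. BS7177_c4_g1_i7 (0.168) had 31.7, 27.8 and 36.8 TPMTMM in young leaves, 59.5, 54.6 and 110 in intermediate leaves and 171, 215 and 218 in mature leaves. Both shared with PEPC1 a high intermediate 3 and a low mature 1. BS621_c0_g1_i1 (0.176), BS732_c1_g2_i1 (0.182) and BS116_c0_g2_i2 (0.190) came next. These 5 unigenes covered mature means of 54.5 to 7178 TPMTMM, and intermediate 3 was the highest intermediate library in each of them.

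One member had a name in the sources used here. BS5842_c0_g1_i1 has as its best Arabidopsis hit AT1G01180, a protein of the superfamily of methyltransferases that depend on S-adenosylmethionine, enzymes that transfer methyl groups to many substrates. It had 5.14, 5.05 and 4.38 TPMTMM in young leaves, 7.11, 8.18 and 6.99 in intermediate leaves and 41.9, 20.9 and 20.9 in mature leaves. The mature values lay far above those of the other stages, and mature 1 stood at about the sum of the other mature libraries. M/Y was 5.75, and 4.31 without mature 1. The I/Y of 1.53 lay just inside the limit. The other 190 members are named by their assembly ID only.

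The members' calls in the test of all unigenes are given here beside the background, since the same levels chose them, and nothing is read from the difference. Limma on log2(TPMTMM + 1) called 73 of the 191 members higher in intermediate than in young leaves at an adjusted p under 0.05, where 2.99% of all unigenes were called higher. For mature against intermediate leaves it called 188 members higher, against 16.1% of all unigenes, and for mature against young leaves all 191 members, against 24.2% of all unigenes. By limma 0 members were called lower in any of the 3 comparisons, also at an unadjusted p under 0.05. Replicate number was also fitted as a block in the young and intermediate libraries alone. Then 183 members were called higher in intermediate leaves, where 12.9% of all unigenes were. Whether the numbers pair these libraries is uncertain. Library 3 deviated with its own number (correlation of 0.696), but young 1 and young 2 correlated better with intermediate 2 (0.508) and intermediate 1 (0.547). The call of the first step depended on single libraries too: 5 members were called without young 2, where 0.0769% of all unigenes were called higher, and 125 without mature 1, where 5.3% were. The other omissions gave counts in between, of which those without young 1, young 3, intermediate 1, intermediate 2, intermediate 3 and mature 2 were 8, 17, 10, 43, 23 and 38. The share of all unigenes was 0.128% to 1.49% in these 6 fits. The 3 members not called in the second step were BS2619_c0_g1_i2, BS7921_c1_g1_i1 and BS10565_c0_g1_i2, named here after their values were seen. In each of them mature 1 was more than 2 times mature 2 and mature 3.

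The rule rests on the scaling between libraries, because the authors' factors differ between stages. They averaged 0.858 ± 0.0171 over young libraries, 0.932 ± 0.0587 over intermediate libraries and 1.26 ± 0.0421 over mature libraries (SD, n = 3). In TPM without this scaling the log2 fold change of the median unigene was -0.12 for intermediate against young leaves, -0.43 for mature against intermediate leaves and -0.57 for mature against young leaves, where it was near 0 in TPMTMM. In TPM the members' median log2 ratios were 0.67 for I/Y, 0.96 for M/I and 1.65 for M/Y. Each member still had a higher mean at each later stage, which the limits of the rule fix, since the factors differ by less between stages. Without overlap in TPM, every intermediate library lay above every young library in 170 members, against 10.2% of all unigenes, and every mature library above every intermediate library in 175, against 7.81%. Both held in 161 members, against 3.72% of all unigenes, and 190 members kept mature above young libraries, against 12.1% (28.0% of all unigenes in TPMTMM). In TPMTMM, where the rule demands it of every member, the 2 separations held in 18.2% and 21.8% of all unigenes and both together in 10.5%. The limits themselves, applied to TPM, found 51 unigenes, 50 of them members.

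Within stages many members deviated in the same libraries. In intermediate 3 the median member stood 0.22 above its stage mean on the log2 scale, with -0.08 in intermediate 1 and -0.13 in intermediate 2, while the median over all unigenes stayed within 0.02 of its stage mean in every library. Intermediate 3 was the highest intermediate library in 144 members (75.4%), and in 44.8% of all unigenes. Among young libraries the median member stood at 0.05, 0.06 and -0.10 in young 1, 2 and 3. Young 3 was the lowest in 114 members (59.7%), and in 39.9% of all unigenes. Among mature libraries it stood at 0.11, -0.01 and -0.10, and mature 1 was the highest in 110 members (57.6%), and in 40.1% of all unigenes. The rule did not ask for these orders, but it used the same libraries, and a high intermediate 3 and a low young 3 both raise I/Y.

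**Figure D4:**
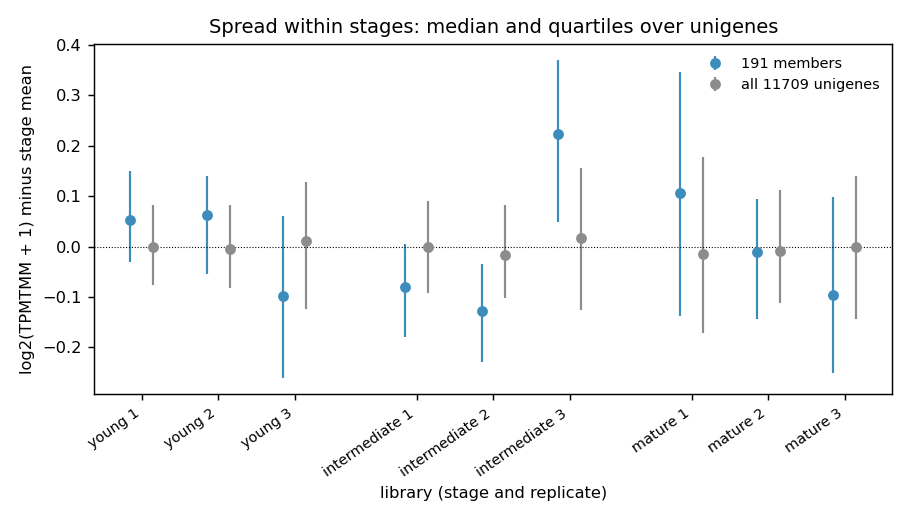
Deviation of log2(TPMTMM + 1) from the stage mean in each library, as the median (point) and quartiles (line) over the 191 members in blue and over all 11709 unigenes in grey. The members are high in intermediate 3, with a median of 0.22, and lie slightly low in young 3 and high in mature 1, where the medians over all unigenes are close to 0.

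The members split into groups by the order of library 3. In 52 members (27.2%; 29.4% of all unigenes) library 3 was the highest of both the young and the intermediate stage, the order of PEPC1 and PPDK. In 29 members (15.2%; 24.2% of all unigenes) it was the lowest of both. In 70 members (36.6%; 9.76% of all unigenes) young 3 was the lowest and intermediate 3 the highest. In 2 members (1.05%; 9.34% of all unigenes) it was the reverse. Of the 52 members with the order of PEPC1, 26 also had mature 1 as the lowest mature library, as PEPC1 does, and 16 had it as the highest. These were 13.6% and 8.38% of the members, against 18.3% and 4.49% of all unigenes. For 2 smaller sets the share with a low young 3 and a high intermediate 3 was 30.4% and 17.9%. The first holds 23 unigenes that met the first step and then stayed level (M/I no lower than 0.8 and no higher than its reciprocal), and the second 78 unigenes that met the second step from a level start (I/Y in that same range). No test was run on these shares, since all of these sets were chosen on the same libraries.

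Some members have other isoforms of the same Trinity gene, which the rule did not choose but which can share reads with the member. In the TPM table, 96 of the 189 genes had 194 such isoforms. The mean was higher in each of the 2 steps in 116 of them (59.8%), against 26.9% of all 36907 unigenes, and mature exceeded young leaves in 149 (76.8%), against 45.8%. In 31 of them (16%) it was lower in each step, against 32.9%. These counts are of stage means in TPM times the library factor, with no test. The member held a median of 76.5% of its gene's TPM at the young stage, 78.3% at the intermediate stage and 85.5% at the mature stage, and its share was higher in mature than in young leaves in 78 of the 96 genes. The rule favours such a growing share, since it chose the member for its rise and not the other isoforms. A change in isoform use is not read from it.

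Of these isoforms 22 were in the table that was tested. Limma called 3 higher and 0 lower in intermediate than in young leaves, 4 higher and 2 lower in mature than in intermediate leaves, and 8 higher and 2 lower in mature than in young leaves, beside 2.99%, 16.1% and 24.2% of all unigenes called higher and 2.76%, 15.9% and 23.9% called lower. At an unadjusted p under 0.05, 1 isoform was lower in intermediate than in young leaves. BS2637_c0_g1_i3 had the largest rise, with 0.86, 2.52 and 1.75 TPMTMM in young leaves, 3.55, 4.55 and 5.99 in intermediate leaves and 16, 17.2 and 15.7 in mature leaves. Its log2 fold change between mature and young leaves was 2.72 (standard error 0.24, adjusted p = 3.84e-05 from limma). BS1865_c0_g1_i6, whose best Arabidopsis hit is AT1G01570, a predicted glycosyl transferase, had 2.57, 1.68 and 3.50 TPMTMM in young leaves, 3.55, 5.46 and 11 in intermediate leaves and 7.40, 11.1 and 40.5 in mature leaves. Mature 1 overlapped the intermediate libraries, and the log2 fold change between mature and young leaves was 2.20 (standard error 0.57, adjusted p = 0.0123 from limma). Its Trinity gene holds 2 members, BS1865_c0_g1_i4 with a mature mean of 378 TPMTMM and BS1865_c0_g1_i3 with 214 TPMTMM.

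The 2 isoforms called lower in mature than in young leaves were BS10513_c1_g1_i4 and BS362_c0_g1_i42. The member of each of these genes was called higher there, as all 191 members were. The member BS10513_c1_g1_i1 had 4.28, 1.68 and 2.63 TPMTMM in young leaves, 5.33, 4.55 and 5.99 in intermediate leaves and 50.6, 34.5 and 35.2 in mature leaves. BS10513_c1_g1_i4 had 51.2, 58.5 and 31.0 TPM in young leaves and 35.2, 31.7 and 17.8 TPM in intermediate leaves, and was listed at 0 TPM in all 3 mature libraries. It was called lower in mature than in young leaves (adjusted p = 6.49e-06 from limma on TPMTMM). Another isoform of the gene, BS10513_c1_g1_i5, had 35.1, 34.3 and 22.5 TPM in young leaves, 21.5, 17.0 and 11.6 in intermediate leaves and 0.39, 0.76 and 2.01 in mature leaves. Summed over its 5 isoforms, TPM times the library factor averaged 86.1 at the young stage, 61.3 at the intermediate stage and 46.6 at the mature stage. The rise of this member was therefore not one of its Trinity gene as a whole. BS362_c0_g1_i42, named here after its values were seen, had 29.1, 29.4 and 31.5 TPMTMM in young leaves, 29.3, 28.2 and 29 in intermediate leaves and 18.5, 19.7 and 18.3 in mature leaves. Its log2 fold change between mature and young leaves was -0.65 (standard error 0.08, limma adjusted p = 0.000222). The member of its gene, BS362_c0_g1_i13, had stage means of 163 (young), 273 (intermediate) and 632 TPMTMM (mature). BS351_c0_g1_i19, the isoform with the second lowest M/Y of the 22, had 27.4, 25.2 and 22.8 TPMTMM in young leaves and 4.93, 16 and 15.7 in mature leaves, and did not pass the test (adjusted p = 0.060 from limma). BS621_c0_g1_i2 stood at 42.8, 47.9 and 39.4 TPMTMM in young leaves and 65.4, 54.2 and 48.3 in mature leaves, an M/Y of 1.29 that falls under 1 in TPM without scaling, while that of BS621_c0_g1_i1, a member of the same gene and among the 5 closest to PEPC1, was 6.45.

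Named genes of the C4 cycle and of other leaf functions show where the limits of the rule lie. Of 9 C4 cycle enzymes, limma called 6 higher in intermediate than in young leaves, where 2.99% of all unigenes were called higher. It called 8 higher in mature than in intermediate leaves (16.1% of all unigenes) and 9 higher in mature than in young leaves (24.2%). At an adjusted or unadjusted p under 0.05, 0 were lower, and 5 of the 9 met the rule. These 5 are all among the genes left out beforehand. ALA-AT2 (alanine aminotransferase), which the paper also names as an enzyme of the cycle, was not on the list. NAD-ME2, the decarboxylase, and CAb1, a carbonic anhydrase, missed the M/I limit alone. NAD-ME2 had 708, 722 and 753 TPMTMM in young leaves, 1112, 1084 and 1928 in intermediate leaves and 2587, 2854 and 2630 in mature leaves, with an M/I of 1.96. The malate dehydrogenases cMDH1 and mMDH2, which interconvert malate and oxaloacetate, met 2 and 3 of the 5 demands, and the mature mean of cMDH1 was above its young mean in TPMTMM but below it in TPM without scaling. Of the 3 transporters listed here (UCP1, DTC and TPT), all were called higher in mature than in young leaves and none met the rule. The paper places TPT in a shuttle of triose phosphates, and other transporters it names for the cycle were not on the list. UCP1, named for uncoupling proteins of the inner mitochondrial membrane, and TPT, the triose phosphate translocator of chloroplasts, missed the M/I limit alone. Of 6 genes of photosystems and chlorophyll synthesis, all 6 were called higher in mature than in young leaves and none met the rule. PSAD2, a photosystem I subunit, and PORC, an enzyme of chlorophyll synthesis, missed both ratio limits. For mature against young leaves in TPM without scaling, limma called higher 8 of 9 enzymes, 2 of 3 transporters and 4 of these 6 genes. None of them was called lower, and 11.1% of all unigenes were called higher. The reference genes RPT6A and SAND were called in no comparison in TPMTMM. The study chose them as not differentially expressed in this transcriptome, so the lack of calls follows largely from that choice. In TPM without scaling limma called both lower in mature than in intermediate leaves and than in young leaves. There 5647 and 6663 of all 11709 unigenes were called lower.

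Marker levels of cell types moved over the same stages. The summed level of 4 chlorenchyma markers (PSAD2, PSB27-1, PORC and TPT) was 1523 to 2171 TPMTMM in young leaves, 2733 to 3084 in intermediate leaves and 4246 to 6271 in mature leaves. PSAD2 and TPT were the largest parts of this sum, with young means of 1074 and 498 TPMTMM. PSB27-1 overlapped between intermediate leaves (189 to 276 TPMTMM) and mature leaves (236 to 292), while PSAD2, PORC and TPT did not overlap between these stages. The 4 epidermal markers (CER1, KCS1, KCS2 and GPAT4, of wax and cutin synthesis) summed to 380 to 469 TPMTMM in young leaves, 448 to 476 in intermediate leaves and 262 to 295 in mature leaves. The 5 markers of dividing cells (HTR12, TPX2, BARD1, CTF18 and CSLD5) summed to 80.8 to 98.9 TPMTMM in young leaves, 60.4 to 64.9 in intermediate leaves and 34.5 to 40.6 in mature leaves. None of these markers was listed at 0 TPM in all libraries of a stage. Of the 4 epidermal genes 0 were called higher and 2 lower in mature than in young leaves by limma, and of the 5 cell division genes 0 higher and 5 lower, with the same counts at an unadjusted p under 0.05 and beside 23.9% of all unigenes called lower. In TPM without scaling, and likewise with upper-quartile scaling, all 4 epidermal and all 5 cell division genes were called lower. With these scalings 6663 and 3913 of all 11709 unigenes were called lower, against 2801 in TPMTMM. The part of a shift in cell types in the levels of the 191 members was not tested.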

How the data were processed

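Leaf RNA of 3 stages was sequenced by the authors as 100-base read pairs in 9 libraries. Reads were trimmed by Trimmomatic, Trinity built the transcripts, RSEM gave their abundance, and low TPM and CD-HIT-EST served to drop redundant ones. No versions are stated in the sources used here. The authors deposited TPM of 36907 unigenes and TPMTMM of 11709. In 11708 of these, TPMTMM was the rounded TPM plus 1, multiplied by the factor of the library, within 0.001. The factor was read from the values, as the median over unigenes of TPMTMM over the rounded TPM plus 1. Read counts are in neither table, so depth per value is unknown and intervals for counting error are left out.

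Members were found by the rule in TPMTMM. The members and lists were chosen with earlier results of these data known. All unigenes were tested with limma (trend) on log2(TPMTMM + 1), fitting all 9 libraries together by stage, Benjamini-Hochberg adjustment and a threshold of 0.05. The test of the study needs counts and was not used. Scripts were tested on simulated data. R 4.3.3, limma 3.58.1, Python 3.11.15, pandas 2.3.3, numpy 2.4.6 and matplotlib 3.10.9 were used.

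Named unigenes are members named in the sources, the 5 highest, the 5 with the largest M/Y (young mean of at least 5), the 5 closest to PEPC1, the 2 largest and 2 smallest shares reached by intermediate leaves, the pairs at each limit, the 2 isoforms with the largest rise and 2 with the largest fall, and listed genes. The lists are C4 enzymes, transporters, photosystem and chlorophyll, cuticle, cell division and reference genes. A shortened copy of the study's annotation, with 196 unigenes, was at hand.

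Whether replicate numbers pair libraries was checked by correlating, over all unigenes, how far 2 libraries lay from the means of their stages. Young and intermediate libraries of the same number correlated at 0.467, 0.445 and 0.696 and were taken as pairs, though young 1 and young 2 correlated better with intermediate 2 (0.508) and intermediate 1 (0.547). Mature 2 correlated at -0.427 and -0.476 with its same-numbered libraries, so mature libraries were not taken as paired. Alternatives changed the added value, low-value filter, scaling, limits, libraries, block and samples fitted. No sequence of the members was used.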

Additional observations from a re-analysis of the deposited data

Results flagged for a closer look

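Outside the table the rule was applied to, 142 of the 25198 unigenes with TPM only (0.564%) met the same limits in TPM times the library factor, a signal in data that the comparisons do not use. The highest 3 had mature means of 29102 (BS54705_c1_g1_i2), 15109 (BS42966_c0_g1_i2) and 8018 (BS1686_c0_g2_i1) TPM times the factor, all above the highest of the 191 members, and the first 2 of these also above PEPC1. BS54705_c1_g1_i2 had 6911, 7426 and 7169 TPM in young leaves, 10658, 10362 and 14914 in intermediate leaves and 25085, 25558 and 19080 in mature leaves. BS1686_c0_g2_i1 had 72.9, 69.4 and 237 TPM in young leaves, 244, 249 and 700 in intermediate leaves and 5570, 7993 and 5628 in mature leaves, and 4 other isoforms of its Trinity gene were present in the TPM table. Of the 142 unigenes 22 had a mature mean of at least 1000. Together they held 1.78% to 1.94% of TPM in young leaves, 2.85% to 4.24% in intermediate leaves and 8.75% to 10.6% in mature leaves, more than the 191 members in every mature library. Why these unigenes have no TPMTMM value is not given in the sources used here.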

How the results depend on the processing

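The count of unigenes meeting the rule was 51 in TPM without scaling, 339 over all unigenes of the TPM table (185 of them members), 29 with I/Y of at least 2, and 306 or 60 with M/I of at least 1.5 or 3. It ranged from 164 to 215 when single libraries were left out, with 164 unigenes (123 of them members) without intermediate 3. In TPM without scaling the members' median log2 ratio was 0.96 for mature over intermediate leaves and 1.65 for mature over young leaves. As a share of the summed TPMTMM the members held 3.06%, 4.63% and 9.11% in young, intermediate and mature leaves.

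With a replicate block and only the 2 stages compared, 183 members were called in intermediate against young leaves (12.9% of all unigenes called higher), and 69 with the block over the 9 libraries (2.01%). Leaving out single libraries gave 5 to 125 members called in this comparison (0.0769% to 5.3% of all unigenes), 181 to 187 for mature against intermediate leaves (10.6% to 17.4%) and 191 throughout for mature against young leaves (20.2% to 25.3%). Leaving out single libraries moved the median log2 ratios within 0.65 to 0.83 for intermediate over young leaves, 1.30 to 1.47 for mature over intermediate leaves and 2.09 to 2.18 for mature over young leaves, and the share in place by the intermediate stage within 29.7% to 39.6%.

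Of the 22 other isoforms, 11 were tested with a mean of at least 10 TPMTMM. Those called higher in intermediate than in young leaves became 1 with this filter (4.07% of unigenes tested) or in a fit of the 2 stages (3.19%). With the replicate block they became 7 higher (12.9%) and 2 lower (1099 of 11709 unigenes). Without single libraries 0 to 3 were called higher (0.0769% to 5.3%). In mature against intermediate leaves they became 1 higher with that filter (18.7% of unigenes tested) and 6 lower in TPM (5647 of 11709 unigenes). In mature against young leaves they became 4 higher with that filter (28% of unigenes tested). There 7 were lower in TPM (6663 of 11709 unigenes) or 4 with upper-quartile scaling (3913 of 11709). In TPM without scaling the mature mean of cMDH1 and of BS621_c0_g1_i2 lay below the young mean, against above it in TPMTMM. BS351_c0_g1_i19 passed the threshold in 5 of the fits run with another setting. TPM does not give the depth of a value, and with 3 libraries per stage a single library can weigh heavily on a mean. In 16 members mature 1 was more than 2 times each of the other mature libraries.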
